A study of Mus musculus with 4 samples.

Results

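The cytosolic ribosomal protein genes were read on 4 one-colour arrays of sorted mouse cells. They were chosen by gene symbol alone: every gene named Rpl, Rps or Rplp with a number, and at most a short letter suffix, that had a probe on the array, with pseudogene symbols and the S6 kinases left out. Of 20660 genes named on the array, 85 met this rule, through 172 probes on 181 spots. Rps4l, which RefSeq lists as a transcribed pseudogene, and paralogues such as Rpl3l and Rpl22l1 also meet it. EB5 mouse embryonic stem cells in which red fluorescent protein (RFP) reports on Hoxb6 had differentiated for 6 days on OP9, a stromal feeder line from mice. All were sorted as positive for Flk-1, the VEGF receptor encoded by Kdr that marks early mesoderm. The tested fraction was also positive for the reporter, with 2 arrays, and it was set against the reporter-negative fraction, with 2 arrays. The labels do not say whether the line is a single clone, or whether the 2 arrays of a fraction came from separate cultures, so p-values measure only the spread between these arrays, which may be technical.

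Ribosomal proteins clothe and shape the rRNA of the small and the large subunit, and a ribosome takes up 1 copy of nearly every one, so cells make these proteins in step. Their mRNAs begin with a terminal oligopyrimidine (TOP) tract, a C followed by a run of C and T, through which mTOR signalling and Larp1 control their translation as a group. Dividing and growing cells, such as early mesoderm, carry much of this mRNA. In mice and people, loss of single ribosomal proteins gives specific defects, above all of red blood cells and of the axial skeleton.

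Signals are given on a log2 scale relative to the array's 75th percentile, differences are RFP-positive minus RFP-negative, and ± gives the SD of a fraction's arrays. Whether a probe stood above background was read from the mark set at scanning. The Kdr probe did so on all arrays, with 4.39 ± 0.03 in RFP-positive and 4.25 ± 0.11 in RFP-negative cells (n = 2 each), whereas the Hoxb6 probe was above background on none and gave no check of the sort. No spot was saturated. The share of spots well above background was 55.2% and 59.3% on RFP-positive arrays 1 and 2 and 56.2% and 58.5% on RFP-negative arrays 1 and 2.

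Of the 85 genes, 83 were above background on both arrays of at least 1 fraction and were tested among 13436 genes, and 82 were above background on all 4 arrays. The exceptions were paralogues with a tissue-restricted pattern: Rpl3l, known from striated muscle, and Rpl39l, known from the testis, were above background on no array, and Rpl10l, also known from the testis, was on 3 of 4. The 83 tested genes were lower in RFP-positive cells by a median of −0.30, or 0.810 of the RFP-negative signal, while the median over all genes tested was −0.05. Their differences ran from −0.96 to 0.07, with quartiles of −0.43 and −0.17, and 81 of the 83 lay below 0, against 54.8% of all genes tested. In bulk RNA, fewer cells rich in these mRNAs and less of these mRNAs in each cell cannot be told apart.

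No single gene passed the test. In the limma fit of all 13436 genes, with p-values adjusted by Benjamini-Hochberg, 0 of the 83 reached an adjusted p of 0.05, where 0% of all genes did, and their adjusted p ran from 0.745 to 0.994. At an unadjusted p under 0.05 there were also 0 of the 83, against 3.72% of all genes on the lower side and 2.77% on the higher side. The SE of a difference had a median of 0.28 over the 83, about the size of the median difference itself. Only 3 of the differences were more than 2 SE from 0, and none reached 2-fold, counts that were not made over all genes tested. Both RFP-positive arrays lay below both RFP-negative arrays for 27 of the 83 genes (32.5%), where the share over all genes was 21.6%. Both lay above for 0 of the 83, where the share over all genes was 18.8%.

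The array profile was shared by most of these genes. Measured from each gene's own mean over the 4 arrays, their median was 0.06 on RFP-positive 1 and −0.35 on RFP-positive 2, and 0.28 on RFP-negative 1 and 0.01 on RFP-negative 2. Over all genes tested the same medians were 0.04, −0.07, 0.04 and 0.02. RFP-positive 2 was the lowest of the 4 arrays for 79 of the 83 genes (41.7% of all genes), and RFP-negative 1 was the highest for 76 (26.2% of all genes). RFP-positive 1 and RFP-negative 2 lay between them and next to each other. Most of these genes gave bright signals, but they were set against all genes tested, not against genes of like brightness. Among bright genes outside the family, Nanog, Ubtf and Npm1 had the same lowest and highest arrays, whereas Mcm6 and Fn1 did not. These are examples only, and no count was made over bright genes. The part of brightness in this profile was not tested.

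**Figure D1:**
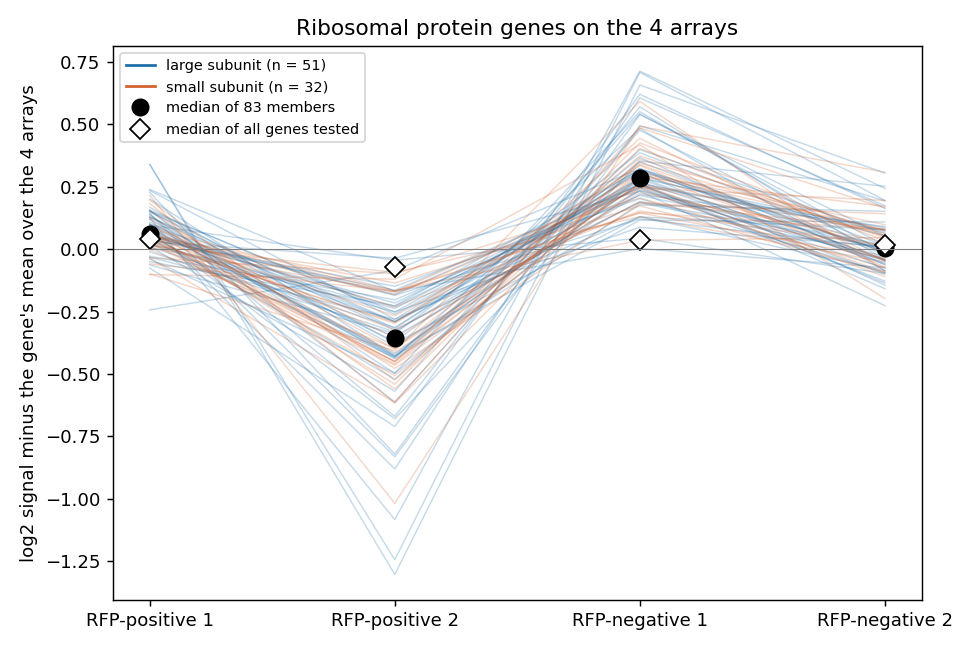
Log2 signal of each of 83 ribosomal protein genes minus that gene's mean over the 4 arrays (y axis), by array (x axis). Thin lines join the values of 1 gene and stand for no order of the arrays, black dots are medians over the 83 genes and open diamonds are medians over all genes tested. RFP-positive 2 is low and RFP-negative 1 is high for nearly every gene of either subunit, whereas the other two arrays lie near 0.

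Within the fractions, the same genes differed by as much as between them. RFP-positive 2 was below RFP-positive 1 for 82 of the 83 genes (57.5% of all genes), by a median of −0.45. RFP-negative 2 was below RFP-negative 1 for 82 of the 83 as well (52.6% of all genes), by a median of −0.32. The exceptions were Rpl10l among the RFP-positive and Rps3 among the RFP-negative arrays. For 69 genes the gap between the RFP-positive arrays was wider than the difference between the fractions, and for 39 the gap between the RFP-negative arrays was. The counts of gaps given here were made for these genes only, so they cannot say whether other genes behave alike. In 8 genes both gaps were narrower than the difference, namely Rpl10l, Rpl18, Rpl27, Rpl28, Rplp2, Rps24, Rps26 and Rps27l, a list read off after the values were seen. Of these, Rpl10l was not above background on RFP-positive 1. Its other probe, above background on 1 array only, was at 1.24.

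Taken array against array, the direction was shared by 3 of the 4 combinations. RFP-positive 2 was below RFP-negative 1 for all 83 genes (56.8% of all genes) and below RFP-negative 2 for 80 (55.6%). RFP-positive 1 was below RFP-negative 1 for 76 (50.2%), but below RFP-negative 2 for only 27 (47.5%), with a median of 0.07. Against the RFP-negative mean, the median was −0.08 for RFP-positive 1 and −0.50 for RFP-positive 2. Without RFP-positive 1 the median difference was −0.50, without RFP-positive 2 it was −0.08, without RFP-negative 1 −0.15 and without RFP-negative 2 −0.43. Without RFP-positive 1 and without RFP-negative 2 the genes lower without overlap numbered 80 and 76, in comparisons of 3 arrays where 44.5% and 38.6% of all genes were. Without RFP-positive 2 and without RFP-negative 1 they numbered 27 each (32.5%), where 31.4% and 36.6% of all genes were. These last counts were thus near or below the share of all genes.

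The 2 subunits had the same median. The 51 genes of the large subunit had a median difference of −0.30, with 49 below 0 (54.8% of all genes) and 16 lower without overlap (21.6% of all genes). The 32 genes of the small subunit had a median of −0.30 too, with 32 below 0 and 11 lower without overlap, to be read against the same shares. RFP-positive 2 was below RFP-positive 1 by a median of −0.46 in the large and −0.42 in the small subunit.

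**Figure D2:**
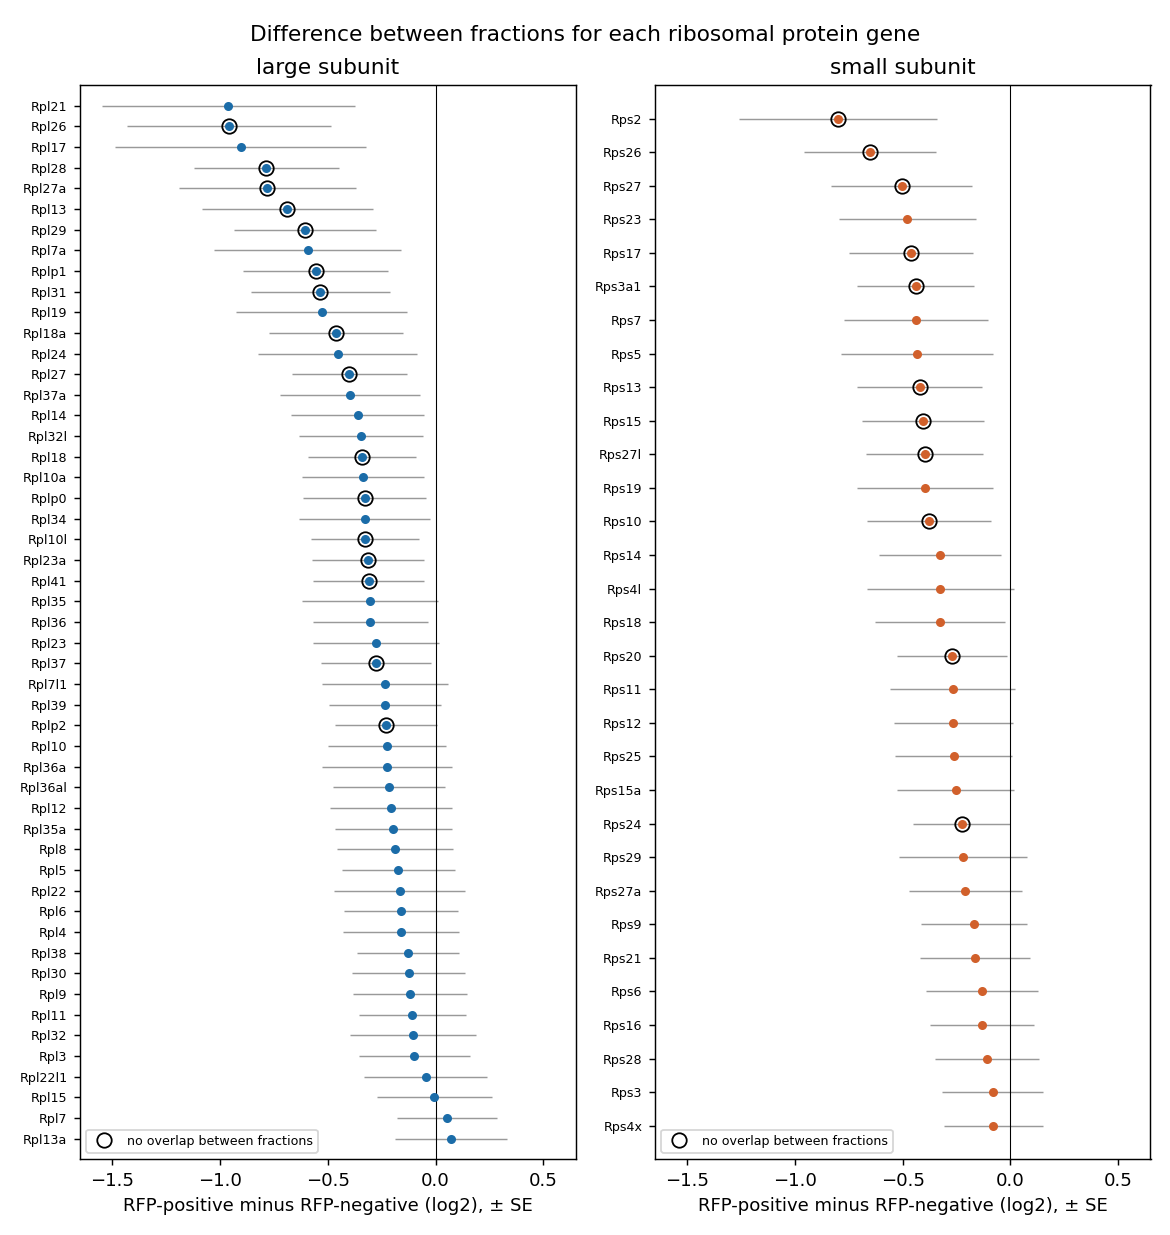
Difference in log2 signal between RFP-positive and RFP-negative cells (x axis, point and SE of the limma fit, 2 arrays a fraction) for the ribosomal protein genes tested and reported by name (y axis), large subunit left and small subunit right. Circles mark the 27 genes lower without overlap. Nearly all points lie left of 0, from −0.96 to 0.07. Of them, 43 are more than 1 SE from 0 but only 3 more than 2 SE, counts not made over all genes tested.

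The promoters of 8 of these genes are shown because the TOP tract begins at the start site. The first 6 are among the 10 lower genes of smallest p, and Rpl13a and Rpl38 are genes of small difference. Each line runs 25 bases before to 25 bases from the RefSeq start site on, on the gene's strand, in build GRCm38.p6, and capitals mark the longest run of C and T.
Rpl28, chr7:4792940-4792989, plus strand: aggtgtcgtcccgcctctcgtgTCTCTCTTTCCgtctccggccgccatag
Rps26, chr10:128626482-128626531, minus strand: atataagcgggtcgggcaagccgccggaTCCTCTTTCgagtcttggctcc
Rpl27a, chr7:109519170-109519219, plus strand: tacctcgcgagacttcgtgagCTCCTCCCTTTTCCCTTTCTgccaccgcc
Rpl31, chr1:39367826-39367875, plus strand: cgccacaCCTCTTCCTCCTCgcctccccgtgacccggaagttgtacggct
Rpl26, chr11:68901541-68901590, plus strand: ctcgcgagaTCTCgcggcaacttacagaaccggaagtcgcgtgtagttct
Rps2, chr17:24720038-24720087, plus strand: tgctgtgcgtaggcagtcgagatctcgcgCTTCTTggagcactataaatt
Rpl13a, chr7:45128721-45128770, minus strand: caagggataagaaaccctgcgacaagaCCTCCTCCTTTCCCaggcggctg
Rpl38, chr11:114668555-114668604, plus strand: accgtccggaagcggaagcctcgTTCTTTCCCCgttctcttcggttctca

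The run has at least 8 bases in Rpl28, Rps26, Rpl27a, Rpl31, Rpl13a and Rpl38 and fewer in Rpl26 and Rps2. Long runs thus appear in genes of large and of small difference alike. The run need not lie at the start site, so the capitals need not be a TOP tract. In Rpl31 it starts at −18 from the site and is 13 bases long, so it ends before the site. In Rps26 it starts at 3. Sequences were found for 64 of the 85 genes. A run of at least 8 C or T on the gene's strand lay in the window of 31 of them (48.4%), against 19.4% of 27025 genes with a sequence. The median difference was −0.29 in the 30 tested genes with such a run and −0.29 in the 32 without. The letters CCGGAAG, the core bound by Ets factors such as Gabpa, were found on either strand of the 300 bases around the start site in 24 of the 64 (37.5%), against 9.12% of all genes. The median difference was −0.31 in the 23 tested genes with these letters and −0.27 in the 39 without. These are matches of letters in RefSeq's windows, whose start sites may not be those used in these cells.

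The lower genes of smallest p came from both subunits. Rpl28, a large subunit protein of eukaryotes, read 5.42 and 4.78 in RFP-positive cells, against 6.11 and 5.66 in RFP-negative cells. Its difference was −0.79 (SE 0.34, limma adjusted p 0.745) and the fractions did not overlap. Rps26, a small subunit protein beside the mRNA exit channel, read 6.95 and 6.37 in RFP-positive cells, against 7.47 and 7.15 in RFP-negative cells. Its difference was −0.65 (SE 0.31), again without overlap, and like Rpl28 its gaps within both fractions were narrower than this. Both still varied with the arrays used, Rpl28 being at −1.10 without RFP-positive 1 and −0.47 without RFP-positive 2, and Rps26 at −0.94 and −0.36.

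Rpl26, a large subunit protein at the mouth of the exit tunnel, read 5.77 and 4.56 in RFP-positive cells, against 6.35 and 5.88 in RFP-negative cells. Most of its difference of −0.96 (SE 0.47) came from RFP-positive 2, and its value without that array was −0.35. All 3 of its probes were lower, by −0.97, −0.96 and −0.54. Rpl21, a large subunit protein, had the widest difference, −0.96 (SE 0.59), yet its fractions overlapped, with 5.15 and 3.51 in RFP-positive cells, against 5.47 and 5.12 in RFP-negative cells. Without RFP-positive 2 it was −0.14. Rps2, a small subunit protein near the mRNA entry side, read 6.31 and 5.07 in RFP-positive cells, against 6.58 and 6.40 in RFP-negative cells, a difference of −0.80 (SE 0.46) and of −0.18 without RFP-positive 2.

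The rest of these 10 followed the same order of arrays. Rpl27a, of the large subunit, read 6.28 and 5.30 in RFP-positive cells, against 6.79 and 6.36 in RFP-negative cells. Rpl29, a basic protein of the large subunit, read 6.89 and 6.14 in RFP-positive cells, against 7.17 and 7.07 in RFP-negative cells. Rpl13, of the large subunit, read 7.21 and 6.24 in RFP-positive cells, against 7.56 and 7.26 in RFP-negative cells. In all of them RFP-positive 1 lay just below the RFP-negative arrays and RFP-positive 2 well below. Rpl31, which sits at the exit tunnel, was closer, with 6.49 and 6.03 in RFP-positive cells, against 7.08 and 6.52 in RFP-negative cells. Differences were −0.78 for Rpl27a, −0.61 for Rpl29, −0.69 for Rpl13 and −0.54 for Rpl31, with limma adjusted p of 0.750 each. One dimmer probe of Rpl27a was at 0.09 and one of Rpl31 at 0.32, while the remaining probes of both genes were below 0.

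The rule for naming genes also asked for genes higher in RFP-positive cells, of which there were 2. Rpl13a, a large subunit protein often used as a reference gene, read 5.74 and 5.33 in RFP-positive cells, against 5.50 and 5.42 in RFP-negative cells, a difference of 0.07 (SE 0.26, limma adjusted p 0.937). Rpl7, of the large subunit, read 7.15 and 7.01 in RFP-positive cells, against 7.10 and 6.96 in RFP-negative cells, a difference of 0.05 (SE 0.23). In both the fractions overlapped, and both signs turned when the mean of the gene's probes was used.

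The acidic stalk, which recruits elongation factors to the large subunit, was lower without overlap in all 3 of its genes (21.6% of all genes, 32.5% of the 83). Rplp1 read 6.99 and 6.41 in RFP-positive cells, against 7.52 and 6.998 in RFP-negative cells, a difference of −0.56 (SE 0.34, limma adjusted p 0.750). Rplp0, which anchors the stalk, read 6.56 and 6.01 in RFP-positive cells, against 6.63 and 6.60 in RFP-negative cells, a difference of −0.33 (SE 0.28). Rplp2, the partner of Rplp1, read 7.54 and 7.36 in RFP-positive cells, against 7.78 and 7.58 in RFP-negative cells, a difference of −0.23 (SE 0.24). In all 3 the RFP-positive 1 value lay just under that of RFP-negative 2, so the lack of overlap rests on small gaps.

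Among proteins with a known tie to Hox genes or to growth signals, Rpl38 and Rps6 were nearer 0 than the median of the 83 genes and Rpl10a was not. Rpl38, which in mice is needed for translation of a subset of Hox mRNAs and for axial patterning, read 7.65 and 7.41 in RFP-positive cells, against 7.72 and 7.60 in RFP-negative cells, with −0.13 (SE 0.24, limma adjusted p 0.882) between them. Rpl10a, which in mouse embryonic stem cells is enriched on ribosomes that translate particular mRNAs, read 7.52 and 7.02 in RFP-positive cells, against 7.70 and 7.51 in RFP-negative cells, a difference of −0.34 (SE 0.28). Rps6, the small subunit target of S6 kinase, read 5.95 and 5.72 in RFP-positive cells, against 6.15 and 5.80 in RFP-negative cells, a difference of −0.13 (SE 0.26). The fractions overlapped in all 3, and under quantile normalization Rpl38 and Rps6 were above 0, at 0.08 and 0.02.

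The ribosome also counts in blood formation, since Diamond-Blackfan anaemia in people comes mostly from a single faulty copy of a ribosomal protein gene. Of 19 such genes, all were measured on all 4 arrays, all 19 were below 0 (54.8% of all genes) and 9 were lower without overlap (21.6% of all genes), with a median difference of −0.34. They are part of the 83 genes, of which 81 were below 0 and 27 (32.5%) lower without overlap, with a median of −0.30. No test was made of them against the rest. Rps19, the gene most often mutated in that disease, read 4.52 and 4.02 in RFP-positive cells, against 4.91 and 4.42 in RFP-negative cells, a difference of −0.40 (SE 0.32, limma adjusted p 0.769) with overlap. Rpl5 and Rpl11 bind 5S rRNA and, when unassembled, hold back Mdm2. Rpl5 read 3.73 and 3.45 in RFP-positive cells, against 3.92 and 3.60 in RFP-negative cells, and Rpl11 read 4.44 and 4.25 in RFP-positive cells, against 4.60 and 4.31 in RFP-negative cells. They overlapped between the fractions and differed by −0.17 (SE 0.26) and −0.11 (SE 0.25). Trp53, the p53 gene that Mdm2 restrains, differed by −0.06, Mdm2 by 0.04 and the p53 target Cdkn1a by 0.08, with limma adjusted p from 0.856 to 0.959 over these 5 genes.

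Paralogues can replace a ribosomal protein in some cells, and 8 pairs were read, in 5 of which both genes were above background on all 4 arrays. Rpl22, an RNA-binding protein of the large subunit that in mice represses its paralogue Rpl22l1, read 5.55 and 5.08 in RFP-positive cells, against 5.71 and 5.25 in RFP-negative cells. Rpl22l1 read 3.82 and 3.30 in RFP-positive cells, against 3.71 and 3.50 in RFP-negative cells. The 2 differed by −0.17 (SE 0.31) and −0.05 (SE 0.29), and both overlapped between the fractions. The other, dimmer probe of Rpl22 went the other way, at 0.31 and higher without overlap, so the sign for Rpl22 depends on the probe.

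Rps27 read 5.87 and 5.57 in RFP-positive cells, against 6.57 and 5.89 in RFP-negative cells, and its paralogue Rps27l, a p53 target, read 2.76 and 2.37 in RFP-positive cells, against 3.11 and 2.82 in RFP-negative cells. Both were lower without overlap, by −0.51 and −0.40. Without RFP-negative 1 Rps27 was at −0.17, without RFP-negative 2 at −0.85, and with the mean of its probes at −0.29. Rps27l was at −0.20 without RFP-positive 2 and at −0.60 without RFP-positive 1. Rps4x read 6.22 and 6.12 in RFP-positive cells, against 6.34 and 6.16 in RFP-negative cells, and Rps4l read 2.85 and 2.13 in RFP-positive cells, against 2.99 and 2.64 in RFP-negative cells. Rpl7l1 read −0.46 and −1.01 in RFP-positive cells, against −0.38 and −0.62 in RFP-negative cells. These 3 overlapped between the fractions. Rpl36a read 7.73 and 7.10 in RFP-positive cells, against 7.65 and 7.64 in RFP-negative cells, and Rpl36al read 3.07 and 2.81 in RFP-positive cells, against 3.32 and 2.99 in RFP-negative cells, again with overlap. Differences were −0.08 for Rps4x and −0.33 for Rps4l, 0.05 for Rpl7 and −0.24 for Rpl7l1, and −0.23 for Rpl36a and −0.21 for Rpl36al. Within the 5 pairs, paralogue minus canonical gene ran from −0.29 to 0.12, which is about the SE of a single difference, and no such contrast was tested. Under quantile normalization Rpl3, Rpl22l1, Rpl36a and Rps4x were above 0. Rpl3, Rpl10 and Rpl39, whose paralogues were not measured on every array, differed by −0.10, −0.23 and −0.23. Rpl3 read 6.29 and 5.88 in RFP-positive cells, against 6.22 and 6.15 in RFP-negative cells, Rpl10 read 7.57 and 7.22 in RFP-positive cells, against 7.79 and 7.45 in RFP-negative cells, and Rpl39 read 5.99 and 5.72 in RFP-positive cells, against 6.25 and 5.92 in RFP-negative cells. All 3 overlapped between the fractions. Rpl10l itself read −4.003, which was not above background, and −3.84 in RFP-positive cells, against −3.44 and −3.75 in RFP-negative cells.

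Ribosomal protein genes have many processed copies in the genome, and a probe can pick up related transcripts, so probes of the same gene were set beside each other. Of the 172 probes, 167 were above background on all 4 arrays, and 154 of these were below 0, with a median of −0.23. The 85 of them that had not been chosen as the brightest probe of a gene had a median of −0.19, with 74 below 0. Without overlap, 15 (17.6%) were lower and 3 higher, where 21.6% of all genes were lower and 18.8% higher. The share lower was thus not above that of all genes, but those shares are over brightest probes, an unlike set. No probe count in this paragraph was made over all probes. The order within the fractions held here too, with RFP-positive 2 below RFP-positive 1 for 162 of 167 probes and RFP-negative 2 below RFP-negative 1 for 160. Of the 50 genes with at least 2 such probes, 38 had every probe below 0 and 12 had probes on both sides.

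The probes of a gene differed by a median of 0.17, and by more than 0.5 in 10 genes, among them Rpl12, Rpl14, Rpl17, Rpl21, Rpl27a, Rpl31, Rpl6, Rps18 and Rps2. The widest was Rpl12, a large subunit protein at the base of the stalk, whose brighter probe was at −0.21 and whose other probe was at 0.87. That probe read 6.51 and 5.78 in RFP-positive cells, against 6.77 and 3.78 in RFP-negative cells, so that 1 array set its value. For Rps2 the second probe was at −0.13, and the 2 other probes of Rpl21 were at −0.41 and 0.02, against −0.80 and −0.96 for the probes used. For Rpl29 the probes were at −0.61 and −0.64. When the mean of a gene's probes stood for it, 16 of the 83 genes were lower without overlap (19.3%), below the share of all genes in that setting (21.7%), and the median was −0.26. A Rpl23 probe printed on 10 spots had SDs between 0.05 and 0.07 within an array, far below the gaps between arrays of a fraction.

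**Figure D3:**
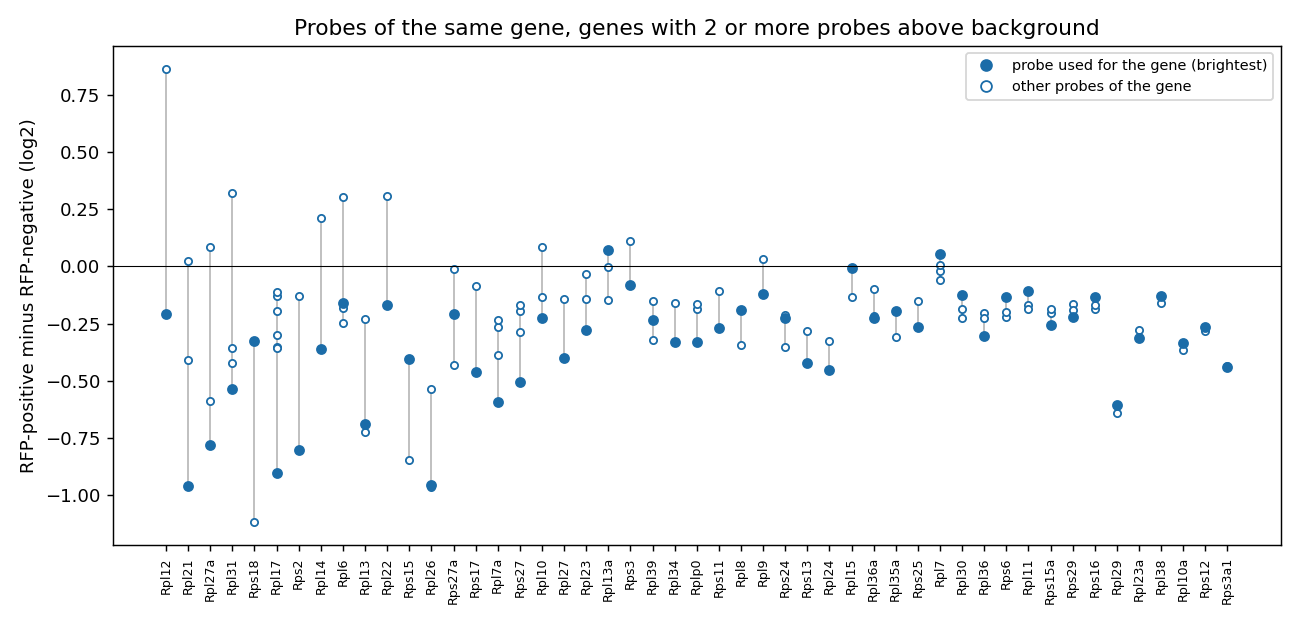
Difference in log2 signal between RFP-positive and RFP-negative cells (y axis) for every probe above background on all 4 arrays, in ribosomal protein genes with at least 2 such probes that are reported by name (x axis, widest range left). Filled points are the brightest probe, which stands for the gene, and open points the others. Most probes lie below 0, and Rpl12, Rpl21 and Rpl27a span the widest ranges.

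The related genes of the translation machinery were then read from lists of known members, whose counts without overlap stand against 21.6% lower and 18.8% higher among all genes. Some ribosomal protein genes carry symbols that the rule misses. Fau, a ubiquitin-like fusion to a small subunit protein, read 9.05 and 8.49 in RFP-positive cells, against 9.20 and 9.19 in RFP-negative cells, and was lower by −0.42 without overlap. Rps27a, a ubiquitin fusion among the 85, was at −0.21, with 7.87 and 7.55 in RFP-positive cells, against 8.07 and 7.77 in RFP-negative cells. Rack1, a scaffold on the small subunit, was at −0.40 and Rpsa, the laminin receptor protein of the small subunit, at −0.03. RFP-positive 2 was the lowest array for Fau, Rack1 and Rpsa.

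Of the other mRNAs known for a TOP tract, 19 were tested, with a median difference of −0.18, 7 lower (21.6% of all genes) and 1 higher (18.8% of all genes) without overlap. Eef2, the translocation factor, was at −0.46 (SE 0.26, limma adjusted p 0.750), Eef1b2, an exchange factor for elongation factor 1, at −0.46, the noncoding RNA host gene Snhg1 at −0.48 and Eif2s3x, a subunit of initiation factor 2, at −0.28. Their array medians had the order of those of the ribosomal protein genes, 0.07 and −0.19 on the RFP-positive arrays and 0.15 and −0.01 on the RFP-negative arrays. The 25 initiation factors tested had a median of −0.06, with 6 lower and 5 higher without overlap. Eif6, which keeps the subunits apart during assembly, was at −0.63 and Eif2a at −0.45, while Eif3j1 was at 0.46 and the cap-binding Eif4e at 0.39.

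Genes of ribosome biogenesis, which make and process rRNA, had a median of −0.10 over 56 genes, with 11 lower and 10 higher without overlap, close to the shares of all genes (21.6% and 18.8%). The 4 of smallest p were higher in RFP-positive cells: Mphosph10 by 0.83, Heatr1 by 0.57 and Wdr12 by 0.55, all of rRNA processing, and Taf1b, of RNA polymerase I initiation, by 0.57, with limma adjusted p of 0.745 each. Regulators of the mTOR pathway and the Myc family had a median of 0.00 over 21 genes, with 2 lower and 3 higher without overlap. Larp1, which binds TOP mRNAs, read 6.33 and 6.51 in RFP-positive cells, against 5.91 and 6.09 in RFP-negative cells, and was higher by 0.41 (SE 0.24, limma adjusted p 0.750) without overlap. Larp4, a relative, was at 0.44, the S6 kinase family gene Rps6ka3 at 0.54 and Akt1s1, an mTOR inhibitor, at −0.98 with overlap. In these lists values lay on both sides of 0.

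Mitochondrial ribosomal proteins, which serve a separate ribosome and carry other symbols, gave the nearest comparison in kind. Of 78, 77 were tested, with a median difference of −0.19, 60 below 0 (54.8% of all genes), 17 lower and 7 higher without overlap. The 17 of 77 are close to the share of all genes (21.6%), and the 7 are below it (18.8%). Their array medians were 0.12 and −0.29 on the RFP-positive arrays and 0.15 and 0.04 on the RFP-negative arrays, so that RFP-positive 2 was low here as well. Single genes spread more widely than the cytosolic ones, from −1.30 to 1.31. The highest was Mrpl35, which read −1.79 and −1.46 in RFP-positive cells, against −2.80 and −3.07 in RFP-negative cells. No test was made of one list against another.

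**Figure D4:**
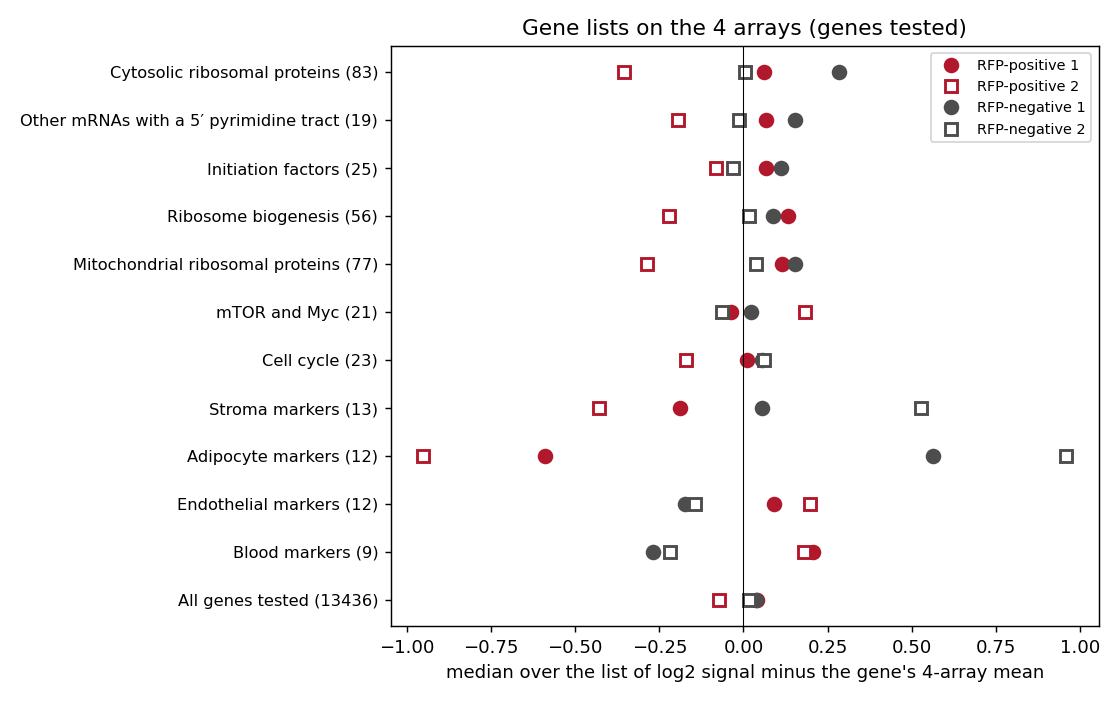
Median over each gene list (y axis, number of genes tested in parentheses) of the log2 signal minus the gene's own 4-array mean (x axis), for each array. For the cytosolic ribosomal proteins the 4 arrays spread from −0.35 to 0.28 with RFP-positive 1 and RFP-negative 2 side by side, whereas for the adipocyte markers the RFP-positive arrays lie apart from the RFP-negative arrays.

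Markers of other cells were read beside these values. Counts without overlap in this paragraph stand against 21.6% lower and 18.8% higher among all genes. All 12 adipocyte markers were lower in RFP-positive cells without overlap, with summed signals, in multiples of the 75th percentile, of 23.6 and 17.5 in RFP-positive cells, against 54.7 and 65.6 in RFP-negative cells. Of 15 stroma and fibroblast markers, 13 were tested, and 8 were lower and 1 higher without overlap, with sums of 253.3 and 245.9 in RFP-positive cells, against 272.9 and 301.3 in RFP-negative cells. Postn and Dcn were above background on no array. Of 12 endothelial markers, 8 were higher and 0 lower without overlap, with sums of 67.7 and 87.0 in RFP-positive cells, against 59.3 and 57.7 in RFP-negative cells. Of 12 blood markers, 9 were tested, and 5 were higher and 1 lower without overlap, with sums of 22.3 and 19.2 in RFP-positive cells, against 16.9 and 14.7 in RFP-negative cells, and Hba-x was above background on no array. Of 12 endoderm markers, 8 were tested, and 4 were lower and 0 higher without overlap, and of 10 pluripotency markers, 7 were tested, and 2 were lower and 0 higher. The 23 cell cycle genes had a median of −0.10, with 8 lower and 5 higher without overlap. The part of these cells, of proliferation and of the share of spots above background in the ribosomal protein values was not tested.

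How the arrays were scaled set much of the size. The 75th percentile, which was subtracted, was largest on RFP-positive 2 and smallest on RFP-negative 1. These are the arrays on which the ribosomal protein genes were lowest and highest. The part of the percentile in their values was not tested. Quantile normalization gave a median difference of −0.14 and cyclic loess −0.16, with the median over all genes tested at −0.01 and 0.00, and 67 and 68 of the 83 genes were then below 0. The genes lower without overlap numbered 30 and 32 in these scalings, where 20.1% and 19.4% of all genes were. Those higher numbered 5 and 2, where 20.4% and 21.0% of all genes were. The gaps within the fractions shrank too, with RFP-positive 2 below RFP-positive 1 for 61 and 60 of the 83 genes and RFP-negative 2 below RFP-negative 1 for 63 and 67. Scaling to the median left −0.22, with 16 genes lower (16.6% of all genes) and 1 higher (24.4% of all genes) without overlap, and normexp background correction left −0.23.

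**Figure D5:**
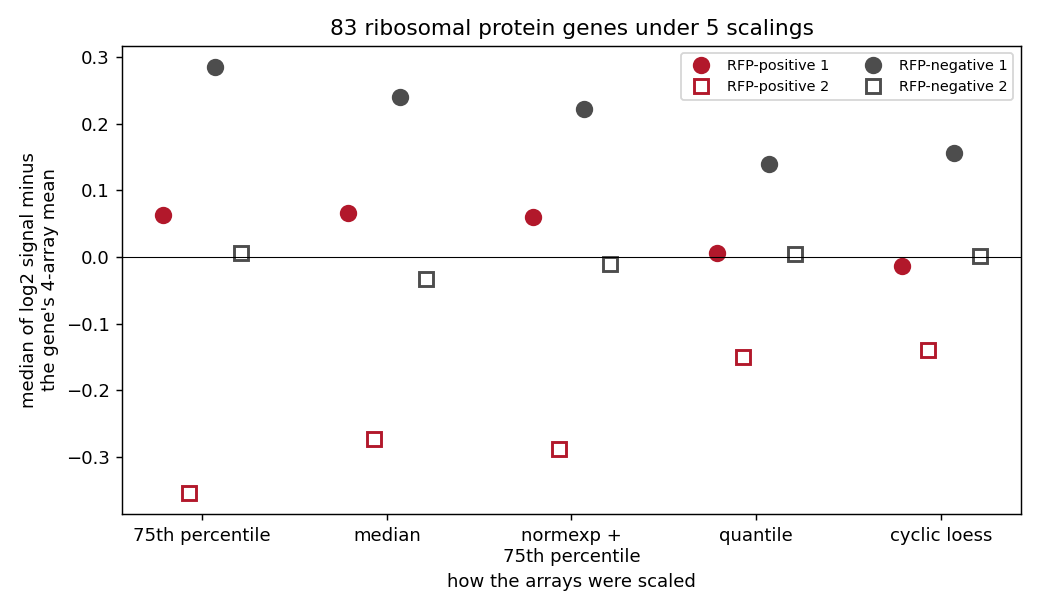
Median over 83 ribosomal protein genes of the log2 signal minus the gene's 4-array mean (y axis), for each array under 5 ways of scaling the arrays (x axis). RFP-negative 1 is the highest and RFP-positive 2 the lowest array in all 5, and the spread between them narrows under quantile normalization and cyclic loess.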

How the data were processed

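The deposited intensity values are processed signals of 4 one-colour (Cy3) Agilent arrays (per the file headers, from Feature Extraction 10.10.1.1), from total RNA labelled with the Low Input Quick Amp kit per the labels' protocols. The arrays lay on 1 slide with 1 scan date, which leaves no batch to test. In the deposited value table each array's intensity values are these times 1 constant.

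After 3671 control spots were left out, log2 signals were scaled to each array's 75th percentile. It was 206.4 and 249.8 on RFP-positive arrays 1 and 2 and 183.2 and 208.1 on RFP-negative arrays 1 and 2. Spots marked as outliers (115 to 153 per array) were left out and the rest averaged per probe. Probes were named through RefSeq accessions (table of assembly GRCm38.p6); 27235 of 55681 had 1 symbol. A gene's brightest probe stood for it. A gene was tested if well above background on both arrays of at least 1 fraction. The fit was limma 3.58.1 (lmFit, eBayes, two-sided) in R 4.3.3, with 2 residual and 2.77 prior degrees of freedom and no block; 2 of the 13436 genes, none of them ribosomal, lacked 1 array. The fit was tested on 20 simulated data sets, with spreads drawn from the fitted prior. An adjusted p under 0.05 was reached by 0.17% of genes changed by a log2 of 1, 1.12% by 2 and 27.9% by 3. Changes of the size seen in the ribosomal protein genes could thus rarely be called.

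Members and lists were chosen with earlier results of these data known, and lists were described by counts and medians only. Named were the stalk, the paralogue pairs, Rpl5, Rpl11, Rps19, Rps6, Rpl38, Rpl10a, Rpl13a, Rps27a, the 10 lower and up to 10 higher genes of smallest p, and up to 4 genes per other list. Alternatives covered scaling, background correction, source table, filter, probe choice, spread estimate, replicate block and each array left out. A few genes are not reported here by name. The number of arrays limits the precision. Python 3.11.15, pandas 2.3.3 and matplotlib 3.10.9 were used.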

Additional observations from a re-analysis of the deposited data

How the results depend on the processing

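The results were set beside 15 other settings. In those that used all arrays, 0 ribosomal protein genes passed a limma adjusted p of 0.05, where 0 of all genes did. At an unadjusted p under 0.05 there were between 0 and 3, counts not made over all genes. A limma fit without 1 array assumes that the lone array of a fraction varies like the other fraction. The median difference stayed below 0 in all 15, from −0.50 to −0.08, both reached by leaving out an array. Genes lower without overlap numbered 27 as reported (21.6% of all genes), 30 under quantile normalization (20.1%) and 32 under cyclic loess (19.4%). Under normexp they numbered 22 of the 83 (26.5%), near the share of all genes (23.2%). They numbered 26 when only genes above background on every array were kept (20.4% of all genes), and 32 with the probe of middle difference (24.0% of all genes). They numbered 16 (19.3%) both under scaling to the median (16.6% of all genes) and with the mean of a gene's probes (21.7% of all genes). The remaining settings that used all arrays gave 27, where 19.2% to 21.6% of all genes were lower. Leaving out an array gave 27 to 80, where 31.4% to 44.5% of all genes were lower. Genes higher without overlap numbered 0, and 5 under quantile normalization, 2 under cyclic loess, 1 under median scaling and 1 under normexp. In the settings that used all arrays, 15.5% to 24.4% of all genes were higher. Leaving out an array gave 0 to 7, where 29.5% to 36.5% of all genes were higher.

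The replicate number was tried as a block, although the labels say only that the numbers exist. The 2 gaps between replicates 1 and 2 correlated at 0.15 across the 83 ribosomal protein genes and at 0.09 across 13434 genes, which are not independent. With the replicate block the medians and counts without overlap were the same, with 0 genes past the adjusted threshold. At an unadjusted p under 0.05 there were 3, a count not made over all genes.

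Of 509 values of 34 named genes in other settings, 476 kept their sign and 33 did not, and the lowest adjusted p was 0.150. Under quantile normalization Rpl3 was at 0.0568, Rpl22l1 at 0.0043, Rpl36a at 0.0011, Rps4x at 0.0826, Rps6 at 0.0218 and Rpl38 at 0.0806. Under cyclic loess Rpl3 was at 0.0315, Rpl22l1 at 0.0195, Rps4x at 0.0538 and Rpl38 at 0.0459. Under median scaling Rpl22l1 was at 0.0388 and Rps4x at 0.0051, and under normexp Rpl3 at 0.0031. With the mean of a gene's probes Rpl7 was at −0.0044, Rpl10l at 0.45, Rpl22 at 0.0703 and Rpl13a at −0.0264, and with the probe of middle difference Rpl7 was at −0.0186 and Rpl13a at −0.0032. Leaving out an array gave −0.30 to 0.10 for Rpl3, −0.0177 to 0.12 for Rpl7, −0.51 to 0.0349 for Rpl7l1, −0.40 to 0.0662 for Rpl22, −0.30 to 0.21 for Rpl22l1, −0.54 to 0.0882 for Rpl36a, −0.17 to 0.0118 for Rps4x, −0.69 to 0.0338 for Rps4l, −0.26 to 0.0392 for Rpl11, −0.31 to 0.0431 for Rps6 and −0.13 to 0.27 for Rpl13a. The causes were not tested. The 2 arrays a fraction limit what the fit can call.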
